A study of Mus musculus with 47 samples.

Results

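Gluconeogenesis and glucose sensing were followed in mouse liver through 9 genes: Pck1, G6pc, Fbp1, Ppargc1a, Pklr, Slc2a2, Irs2, Igfbp1 and Tat. They were taken by name: every gene probe of the array that carried 1 of these symbols was used, which gave 10 probes of 56605, with 2 probes for Ppargc1a and 1 for each other gene. All 10 probes were well above background on each of the 47 arrays and none was saturated, so the 9 genes stood among the 21745 genes tested. Liver RNA was hybridised to Agilent 1-colour arrays, and values are log2 fluorescence after normalization, on which a step of 1 is a doubling.

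The study asked how the gut microbiota acts on the liver through the pregnane X receptor (PXR, encoded by Nr1i2), a nuclear receptor that senses foreign chemicals and bile acids. The 8 groups combined sex, genotype and antibiotics: female and male mice, Pxr+/+ or Pxr-/-, without antibiotics (Cont) or with ampicillin at 1 g/L, neomycin at 1 g/L and vancomycin at 0.5 g/L in the drinking water for 2 weeks (ATB). Each group held 6 mice, except male Pxr-/- Cont with 5. All were C57BL/6J littermates from Pxr+/- parents, 6 months old, with free access to food, killed at ZT6, which is 6 h after lights on. The deletion is in every tissue of the mouse, mice of a group came from 2 cages. The sources used here do not tie mice to cages, so cage and group cannot be told apart.

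Gluconeogenesis is the making of new glucose from lactate, glycerol and amino acids, and the liver is its main site. Glucagon, through cAMP, and glucocorticoids raise the transcription of its enzymes between meals, while insulin, through Akt and the exclusion of the factor FOXO1 from the nucleus, lowers it after a meal. Pck1 (cytosolic phosphoenolpyruvate carboxykinase), Fbp1 (fructose-1,6-bisphosphatase) and G6pc (the catalytic subunit of glucose-6-phosphatase) are the committed enzymes of the path, and Ppargc1a encodes the coactivator PGC-1alpha, which is induced in fasting. Pklr, the liver pyruvate kinase, runs the opposite way, in glycolysis, and is induced by glucose. Slc2a2 encodes GLUT2, the glucose transporter of the hepatocyte membrane. Irs2 is an adaptor of the insulin receptor, Igfbp1 a secreted binding protein of insulin-like growth factors that insulin lowers, and Tat (tyrosine aminotransferase) a classical target of glucocorticoids.

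The promoters of 5 of the genes are shown. As described further on, Irs2 varied between mice with Igfbp1 (Pearson r 0.69) and with G6pc (0.64), and Pck1 with Ppargc1a (0.70). G6pc with Igfbp1 gave 0.42. These 5 are also the only genes of the set with a match to the motifs below. Tat, which varied with Pck1 too, is not printed. Each sequence is the 250 bases before the RefSeq start of the gene (GRCm38.p6), written 5′ to 3′ on the strand of the gene. Capitals mark 3 motifs searched on both strands: CAAAACA (reverse complement TGTTTTG), the core of the insulin response elements that FOXO factors bind, TGACGT (reverse complement ACGTCA), the core of the cAMP response element, and CACGTG, an E-box.
Igfbp1, chr11:7197537-7197786, plus strand: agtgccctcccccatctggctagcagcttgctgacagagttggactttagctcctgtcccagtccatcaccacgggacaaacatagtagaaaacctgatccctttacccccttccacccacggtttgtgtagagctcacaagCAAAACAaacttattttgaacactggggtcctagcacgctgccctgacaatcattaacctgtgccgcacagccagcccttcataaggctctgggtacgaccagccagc
Irs2, chr8:11008930-11009179, minus strand: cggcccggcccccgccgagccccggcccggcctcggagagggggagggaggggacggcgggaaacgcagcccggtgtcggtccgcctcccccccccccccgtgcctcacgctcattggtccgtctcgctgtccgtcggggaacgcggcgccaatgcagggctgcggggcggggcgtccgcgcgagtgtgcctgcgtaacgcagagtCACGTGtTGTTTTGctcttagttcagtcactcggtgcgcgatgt
G6pc, chr11:101367466-101367715, plus strand: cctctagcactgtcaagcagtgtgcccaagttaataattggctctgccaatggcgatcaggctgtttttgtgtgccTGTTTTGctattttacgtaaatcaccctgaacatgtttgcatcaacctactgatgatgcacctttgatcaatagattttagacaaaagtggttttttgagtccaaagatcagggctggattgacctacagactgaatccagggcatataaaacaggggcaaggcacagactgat
Pck1, chr2:173152823-173153072, plus strand: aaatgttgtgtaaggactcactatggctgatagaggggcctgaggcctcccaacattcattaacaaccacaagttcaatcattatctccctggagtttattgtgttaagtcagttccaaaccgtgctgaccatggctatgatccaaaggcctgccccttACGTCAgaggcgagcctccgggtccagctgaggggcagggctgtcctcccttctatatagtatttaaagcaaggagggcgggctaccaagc
Ppargc1a, chr5:51567726-51567975, minus strand: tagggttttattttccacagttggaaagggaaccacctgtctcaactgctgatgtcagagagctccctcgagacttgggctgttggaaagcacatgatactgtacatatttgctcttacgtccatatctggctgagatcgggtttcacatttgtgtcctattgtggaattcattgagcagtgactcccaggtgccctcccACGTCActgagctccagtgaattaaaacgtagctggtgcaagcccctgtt

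CAAAACA was found upstream of 3 of the 9 genes, G6pc, Irs2 and Igfbp1, and in 5.56% of the 32851 promoters in the table. In Igfbp1 it lay 108 to 102 bases before the start, in G6pc 174 to 168 bases and in Irs2 37 to 31 bases. TGACGT was found upstream of 2 of the 9, Pck1 (91 to 86 bases before the start) and Ppargc1a (50 to 45 bases), and in 6.47% of all promoters. CACGTG was found in Irs2 alone of the 9, next to its CAAAACA match with 1 base between, and in 6.02% of all promoters. The motifs were searched for because of what these genes are known for, with the values already seen, so a match describes the letters of a window and says nothing of binding.

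Labels were checked first. Xist lay between 7.8 and 8.3 in all females and between 4.05 and 4.82 in all males, and Ddx3y ran the other way. Nr1i2 means were lower in Pxr-/- than in matched Pxr+/+ livers by 0.28 to 0.57 without passing the test in any of the 4 comparisons (limma adjusted p = 0.0848 to 0.997). Whether its probe falls in the deleted stretch is not given in the sources used here, so it does not check the genotype labels. Hepatocyte markers (7 genes tested, list mean 17.83 to 18.1 over all mice) gave at most 1 call in a comparison, Fgb lower in males. On 5 of the 6 slides all 8 groups were present once, and 1 slide lacked male Pxr-/- Cont.

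Igfbp1 was lower in males in all 4 conditions and Irs2 in 3 of 4, each by about 2-fold, and these were the members with the widest sex differences. In the sex comparison, 3 of 9 genes passed the test in Pxr+/+ Cont mice, where 29.9% of all genes were called lower in males. A call is an adjusted p of at most 0.05 in limma, over all probes tested, and a fold above 1.2. The count was 2 of 9 in Pxr-/- Cont (13.7% of all genes lower), 2 of 9 in Pxr+/+ ATB (9.05%) and 3 of 9 in Pxr-/- ATB (23.2%), and all of these calls were lower in males. The median change of the 9 genes was -0.28, -0.29, -0.26 and -0.43 in these comparisons, in this order, against -0.20, -0.13, -0.04 and -0.17 over all genes. Quantile normalization, which brought the median of all genes to 0.01 in each comparison, left 8.37%, 6.28%, 8.28% and 6.33% of all genes lower in males, and called 1 of the 9 genes in each comparison: Irs2 in both Pxr+/+ comparisons and Igfbp1 in both Pxr-/- comparisons. The male and female ranges did not overlap for 2, 1, 0 and 1 of the 9 genes, against 17%, 7.26%, 6.59% and 10.3% of all genes.

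**Figure D1:**
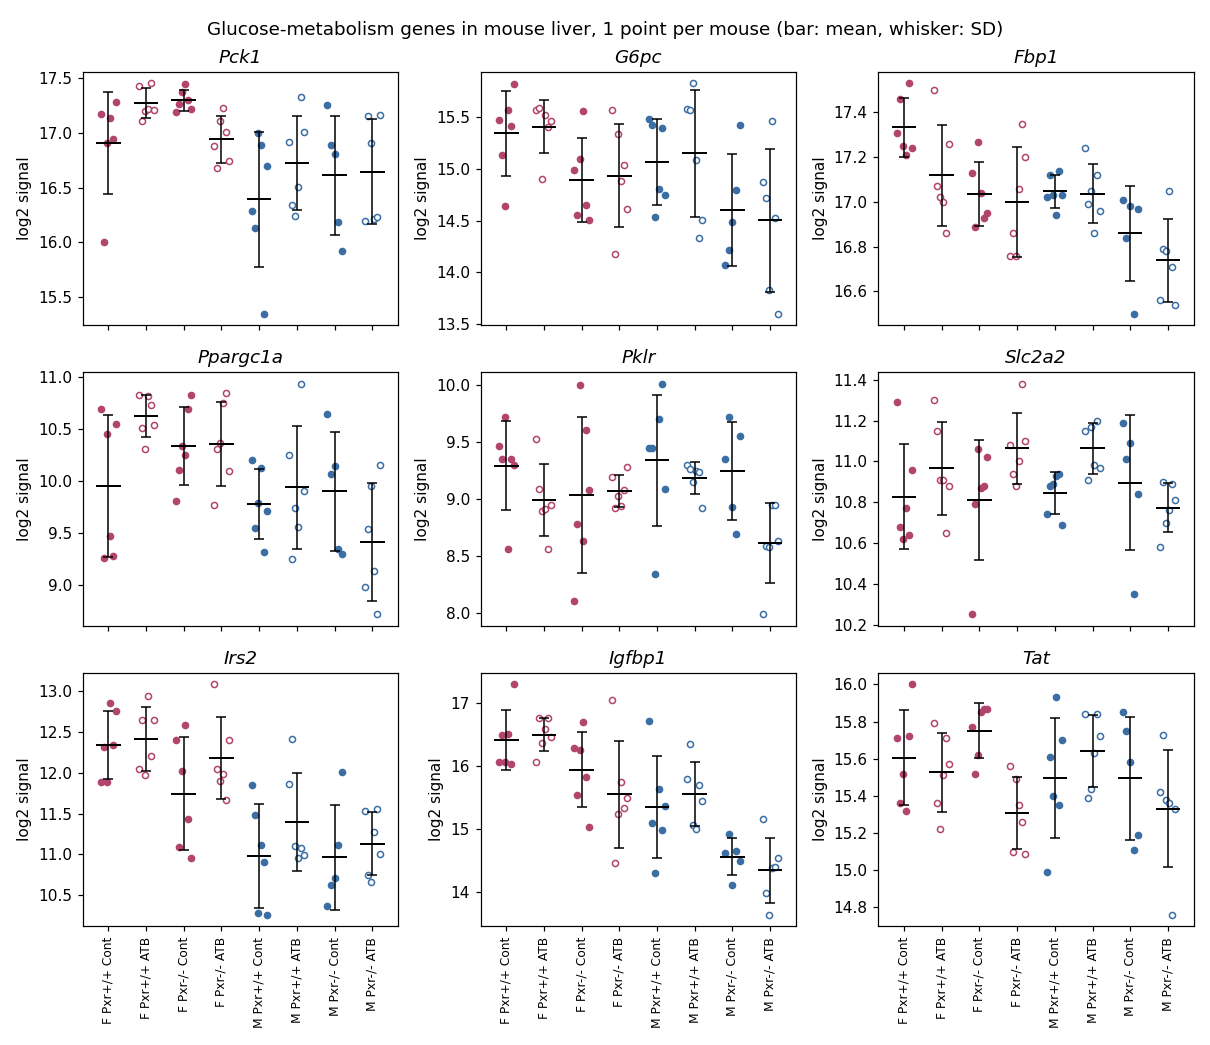
Normalized log2 signal of the 9 genes (vertical axes, 1 panel a gene, brightest probe, each on its own scale) in the 8 groups, 1 point per mouse, with filled points for Cont, open points for ATB, red for females and blue for males, bars for means and whiskers for SD. Irs2 and Igfbp1 sit lower in males under each genotype and treatment, while the group means of Slc2a2 span 0.29.

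Irs2 in Pxr+/+ Cont females ranged from 11.88 to 12.85 (median 12.33, n = 6), and in Pxr+/+ Cont males from 10.26 to 11.85 (median 11.01, n = 6). The groups did not overlap, and the male mean was lower by 1.36 ± 0.30 (log2, SE; 2.56-fold; limma adjusted p = 0.000729). On the 6 slides the male was below the female each time, with differences from -2.51 to -0.03. Under ATB, Pxr+/+ females ranged from 11.97 to 12.94 and males from 10.96 to 12.41, a difference of -1.01 ± 0.30 (limma adjusted p = 0.0211). Here 5 of 6 males lay below every female, the male was lower on all 6 slides, and the call was lost when any of 5 livers was left out (female 4 or 6, male 3, 4 or 6; adjusted p up to 0.0595). In Pxr-/- ATB mice the ranges were 11.67 to 13.08 in females and 10.66 to 11.56 in males, again with no overlap (-1.05 ± 0.30, limma adjusted p = 0.00911), and the call was lost with the 3 other normalizations made here (-0.77 at the least, adjusted p up to 0.0958). In Pxr-/- Cont mice, females ran from 10.95 to 12.58, and the 5 males stood at 10.37, 10.62, 10.71, 11.12 and 12.01. That difference, -0.78 ± 0.32, did not pass (limma adjusted p = 0.0897). Without the male at 12.01 it was -1.07 (adjusted p = 0.0257), and without female 2 or female 6 it was -0.91 or -0.97 and also passed (adjusted p = 0.0489 and 0.0433). The wash batch with that male gave 1.06, and the other 2 gave -1.34 and -1.09.

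Igfbp1, for which insulin-like growth factor binding in blood is the known role, was lower in males under all 4 conditions. Pxr+/+ Cont females ranged from 16.04 to 17.3 (median 16.29) and males from 14.3 to 16.72 (median 15.24), a difference of -1.06 ± 0.32 (2.09-fold, limma adjusted p = 0.0108). Of the males, 5 of 6 lay below every female. The call was lost with the 3 other normalizations, with differences up to -0.80 and adjusted p up to 0.1. In Pxr-/- Cont mice the females ran from 15.03 to 16.7, and the 5 males stood at 14.11, 14.48, 14.61, 14.64 and 14.92. These groups did not overlap, and the difference was -1.38 ± 0.34 (2.61-fold, adjusted p = 0.00376). With ATB, Pxr+/+ females ranged from 16.07 to 16.77 and males from 15 to 16.35, with 5 of 6 males below every female (-0.95 ± 0.32, limma adjusted p = 0.0478). Pxr-/- ATB females ranged from 14.45 to 17.05 and males from 13.63 to 15.15, with 4 of 6 males below every female (-1.2 ± 0.32, adjusted p = 0.00535). The Pxr+/+ ATB difference lost its call under 7 of 12 alternative settings (adjusted p up to 0.0768, differences from -0.95 to -0.86) and in all but 18 of the 47 fits that left out 1 liver.

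The enzymes of the path differed less between sexes. Pck1 in Pxr-/- Cont females lay between 17.19 and 17.44, the narrowest range of the 8 groups, and the 5 males stood at 15.92, 16.19, 16.81, 16.89 and 17.25. The male mean was lower by 0.69 ± 0.24 (limma adjusted p = 0.0472), and 4 of 5 males were below every female. This call was lost under 7 of 12 alternatives, the 3 other normalizations among them (adjusted p up to 0.22), and kept in 28 of 47 fits without 1 liver. In the other 3 comparisons the difference was -0.52, -0.55 and -0.30, none of which passed (limma adjusted p = 0.0753, 0.123 and 0.328). The first was -0.70 and passed without female 2, which had the lowest Pck1 of the female livers (adjusted p = 0.0171). It also passed without male 3 (-0.64, adjusted p = 0.0367) or male 4 (-0.62, adjusted p = 0.0443). The second passed when only the groups compared were fitted (-0.55, adjusted p = 0.0446).

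Fbp1 was lower in Pxr+/+ Cont males (16.94 to 17.14) than females (17.21 to 17.53), with no overlap, by 0.29 ± 0.11 (1.22-fold, limma adjusted p = 0.0316). Relative to the median of all genes it was -0.08, the call was lost without any of 5 livers (female 2 or 5, male 1, 4 or 6; adjusted p up to 0.0877), and the processed signal scaled to the 75th percentile gave -0.02 (adjusted p = 0.892). G6pc did not pass in any sex comparison, with differences from -0.43 to -0.26.

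Ppargc1a, the coactivator, passed in Pxr-/- ATB mice alone of the 4 conditions. Females ranged from 9.77 to 10.84 and males from 8.72 to 10.15, and 4 of 6 males lay below every female. The difference was -0.94 ± 0.27 on the brighter probe (limma adjusted p = 0.00918) and -0.83 ± 0.25 on the second (adjusted p = 0.0133). The brighter probe gave -0.73 with quantile normalization (adjusted p = 0.0793). On this probe the sex difference was -0.17 in Pxr+/+ Cont and -0.43 in Pxr-/- Cont mice. In Pxr+/+ ATB mice it passed without male 5 (-0.89, limma adjusted p = 0.0233). Pklr, Slc2a2 and Tat passed in no sex comparison, and their differences ran from -0.46 to 0.21, from -0.29 to 0.10 and from -0.26 to 0.12. When only the groups compared were fitted, Pklr (-0.46, limma adjusted p = 0.0234) and Slc2a2 (-0.29, adjusted p = 0.0366) passed in Pxr-/- ATB mice.

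**Figure D2:**
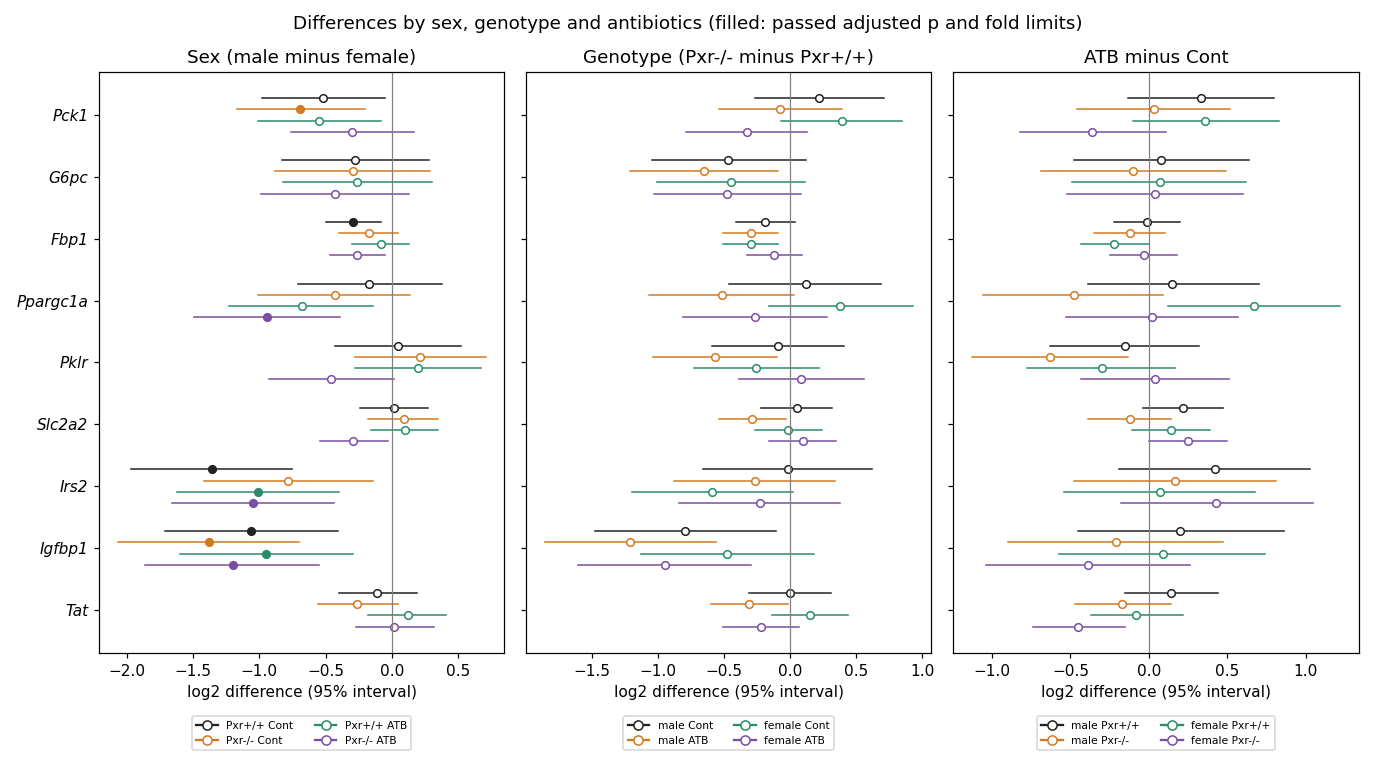
Log2 differences (points) with 95% intervals (lines) for the 9 genes, between males and females, between Pxr-/- and Pxr+/+, and between ATB and Cont, each in 4 conditions shown by colour, with filled points where limma called the gene. The 10 filled points are all sex differences below 0, and in the genotype panel the 4 values of Igfbp1, G6pc, Fbp1 and Irs2 all lie below 0 without being called.

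Because each comparison held 5 or 6 mice a side, the mean of the 4 sex differences was also tested in the same model, a test chosen after seeing the data. It called 4 of 9 genes, all lower in males, where 23.6% of all genes were called lower and the median change was -0.13. Igfbp1 was lower by 1.15 ± 0.16 (limma adjusted p = 1.61e-07), Irs2 by 1.05 ± 0.15 (adjusted p = 2.68e-07), Ppargc1a by 0.56 ± 0.14 (adjusted p = 0.000759) and Pck1 by 0.51 ± 0.12 (adjusted p = 0.000303). These 4 calls held in each of the 11 alternatives run for them, where the differences closest to 0 were -0.95, -0.85, -0.38 and -0.30. Fbp1 was lower by 0.20 (interval -0.31 to -0.09, adjusted p = 0.00156), a fold under 1.2, and G6pc was at -0.32 (interval -0.60 to -0.03, adjusted p = 0.0528). The interval of the mean sex difference was -0.24 to 0.24 for Pklr, -0.15 to 0.11 for Slc2a2 and -0.20 to 0.09 for Tat.

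Markers of other cell types differed between sexes too, in both directions. Of 6 T and NK cell markers 5, 4, 5 and 5 were called lower in the 4 comparisons, and the list mean ran from 6.06 to 6.91 over all males and from 6.72 to 7.68 over all females. Of 10 macrophage markers, 9 were lower in Pxr+/+ Cont males, 4 in Pxr-/- Cont, 5 in Pxr+/+ ATB and 0 in Pxr-/- ATB males, and the list mean ran from 10.76 to 11.72 in Pxr+/+ Cont females and from 9.81 to 10.26 in males. Stellate and fibroblast markers gave 5, 0, 0 and 4 of 7, sinusoidal endothelial markers 4, 1, 1 and 0 of 7, and neutrophil markers 2, 3, 1 and 1 of 5. In the other direction, Cfd of the adipocyte list (3.55 to 5.9), Alas2 of the erythroid list (2.44 to 2.56) and Cela1 of the pancreatic acinar list (0.68 to 1.2) were higher in males in all 4 comparisons. These lists were mixed. Cela2a of the acinar list was lower in Pxr+/+ Cont, Pxr+/+ ATB and Pxr-/- ATB males (-1.48, -1.26 and -1.26). Hbb-bt of the erythroid list was lower in Pxr-/- ATB males (-0.49). Read against the share of all genes called lower, the T and NK cell list was above it in all 4 comparisons, the macrophage, neutrophil and endothelial lists in 3, and the stellate list in 2. In Pxr-/- ATB mice Igfbp1 and Irs2 differed by -1.2 and -1.05. The calls lower there were 5 of 6 T and NK cell markers and 4 of 7 stellate and fibroblast markers. For the other lists they were 1 of 5 neutrophil, 0 of 7 endothelial and 0 of 10 macrophage markers. In whole liver, fewer cells of a type and less RNA per cell cannot be told apart, and the part of these cells in the sex differences was not tested.

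No gene of the 9 passed the test between genotypes in a single condition. The shares of all genes called were 0.189% in Cont males, 3.2% in Cont females, 0.929% in ATB males and 0.207% in ATB females, and at an unadjusted p under 0.05 limma gave 1, 1, 6 and 1 of the 9. The 6 in ATB males were G6pc, Fbp1, Pklr, Slc2a2, Igfbp1 and Tat, all with lower means in Pxr-/- (-1.21 to -0.29, adjusted p = 0.0541 to 0.195). Of all genes 5.17%, 21.5%, 23% and 5.21% reached that unadjusted p in these comparisons. With quantile normalization Fbp1 in ATB males went from -0.30 to -0.19, Tat from -0.31 to -0.16 and Slc2a2 from -0.29 to -0.12. Igfbp1 was the member with the widest difference. In ATB males, Pxr+/+ livers lay between 15 and 16.35 (median 15.57) and Pxr-/- livers between 13.63 and 15.15 (median 14.38), and 5 of 6 Pxr-/- mice were below every Pxr+/+ mouse. This difference of -1.21 ± 0.32 did not pass (limma adjusted p = 0.0541). In the other conditions it was -0.80 in Cont males, -0.48 in Cont females and -0.95 in ATB females (adjusted p = 0.997, 0.391 and 0.642).

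Averaged over the 4 conditions, again a test chosen after seeing the data, 2 of the 9 genes were lower in Pxr-/- livers, where 3.23% of all genes were called lower. Igfbp1 was lower by 0.86 ± 0.16 (95% interval -1.19 to -0.53, limma adjusted p = 0.000681) and G6pc, the last enzyme of glucose output, by 0.51 ± 0.14 (interval -0.79 to -0.23, adjusted p = 0.0179). The call of Igfbp1 held in all 11 alternatives (-0.86 to -0.74). That of G6pc was lost with the 3 other normalizations made here, at -0.40 to -0.44 and adjusted p up to 0.0976. Fbp1 was 0.23 ± 0.05 lower (adjusted p = 0.0063), a fold under the 1.2 that a call needs.

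The G6pc groups overlapped in each condition. In Cont males, Pxr+/+ livers ranged from 14.54 to 15.49, and the 5 Pxr-/- livers stood at 14.07, 14.22, 14.49, 14.80 and 15.43. In Cont females the ranges were 14.64 to 15.82 and 14.51 to 15.56. With ATB they were 14.33 to 15.83 against 13.6 to 15.47 in males, and 14.9 to 15.59 against 14.18 to 15.57 in females. The 4 differences, -0.47, -0.45, -0.65 and -0.48, lay close together, and the Pxr-/- mouse was lower on 4 of 5, 5 of 6, 4 of 6 and 5 of 6 slides.

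The 4 differences of Fbp1 (-0.19, -0.30, -0.30 and -0.12 in Cont males, Cont females, ATB males and ATB females) and of Irs2 (-0.02, -0.59, -0.27 and -0.23) were below 0 too, and the first of Irs2 was 0.03 with quantile normalization. Averaged over conditions, the interval was -0.18 to 0.29 for Pck1, -0.35 to 0.20 for Ppargc1a, -0.45 to 0.03 for Pklr, -0.17 to 0.09 for Slc2a2, -0.59 to 0.03 for Irs2 and -0.24 to 0.05 for Tat. In ATB males the Slc2a2 ranges did not overlap (10.91 to 11.2 in Pxr+/+, 10.58 to 10.9 in Pxr-/-), as was true of 3.37% of all genes, but the difference of -0.29 ± 0.13 did not pass (limma adjusted p = 0.176) and was -0.12 with quantile normalization. In Cont females, 6 of 10 macrophage, 4 of 7 sinusoidal endothelial and 2 of 5 neutrophil markers were lower in Pxr-/-, where none of these was called in the other 3 conditions, and their part in these values was not tested.

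Antibiotics changed none of the 9 genes by the test. The shares of all genes called were 1.04% in Pxr+/+ males, 0.11% in Pxr-/- males, 0.0138% in Pxr+/+ females and 0.152% in Pxr-/- females, and limma gave 0, 1, 2 and 1 of the 9 at an unadjusted p under 0.05. Of all genes 18.7%, 7.19%, 10.7% and 11.7% reached that unadjusted p in these comparisons. The smallest unadjusted p belonged to Tat in Pxr-/- females, which ranged from 15.52 to 15.87 in Cont and from 15.09 to 15.56 in ATB mice. Of the ATB livers, 5 of 6 lay below every Cont liver, the difference was -0.45 ± 0.15 (limma adjusted p = 0.185), and the ATB mouse was lower on all 6 slides.

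Ppargc1a in Pxr+/+ females was 0.67 ± 0.27 higher with ATB (limma adjusted p = 0.402). The Cont values fell far apart, from 9.26 to 10.69, and the ATB values lay between 10.31 and 10.82. Pklr in Pxr-/- males was 0.63 ± 0.25 lower (adjusted p = 0.644), with 8.69, 8.93, 9.35, 9.55 and 9.72 in Cont and 7.99 to 8.95 in ATB mice. The mean ATB difference over the 4 conditions was called for none of the 9 genes, against 2.34% of all genes, and at an unadjusted p under 0.05 only Pklr was found (-0.26, interval -0.50 to -0.02, adjusted p = 0.196). The interval for G6pc was -0.26 to 0.31, for Pck1 -0.14 to 0.33 and for Igfbp1 -0.41 to 0.25.

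Whether a difference by antibiotics, genotype or sex itself differed between conditions was tested in 6 contrasts for each gene. None of the 54 tests passed, where 0.0184% (antibiotics by genotype in males), 0% (in females), 0.0414% (antibiotics by sex in Pxr+/+), 0.0046% (in Pxr-/-), 0.023% (genotype by sex in Cont) and 0.046% (in ATB) of all genes were called, and limma gave 3 at an unadjusted p under 0.05. The share of all genes at that unadjusted p was 4.47% to 12.9% in the 6 contrasts.

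Other genes of the same pathways were taken in 10 lists. Over all genes 2.18%, 2.44%, 3.43% and 2.54% were called higher in males, beside the shares called lower given above, and quantile normalization lowered the calls in the lists too. In the sex comparisons the fasting response, mostly genes of fat burning and ketone production, held the largest share in the ATB groups, with 6 of 12 lower in Pxr+/+ males and 8 of 12 in Pxr-/- males, and 3 and 4 of 12 in the Cont groups. Cyp4a14, a fatty acid omega-hydroxylase, was lower in Pxr+/+ ATB (-4.79) and Pxr-/- ATB males (-4.78; limma adjusted p = 8.78e-10 and 8.82e-10), as was Pdk4, the kinase that holds back pyruvate oxidation (-1.83 and -1.60). The male means of Cyp4a14 there, 5.52 and 4.89, were close to Xist in males (4.05 to 4.82), so the size of these differences is uncertain. Cyp4a14 was also called lower in Pxr+/+ Cont (-1.56) and Pxr-/- Cont males (-4.07). The median change of the fasting list was -0.29, -0.69, -0.83 and -0.58 in Pxr+/+ Cont, Pxr-/- Cont, Pxr+/+ ATB and Pxr-/- ATB mice. Its shares lower, in this order, were 25%, 33.3%, 50% and 66.7%, against 29.9%, 13.7%, 9.05% and 23.2% of all genes.

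**Figure D3:**
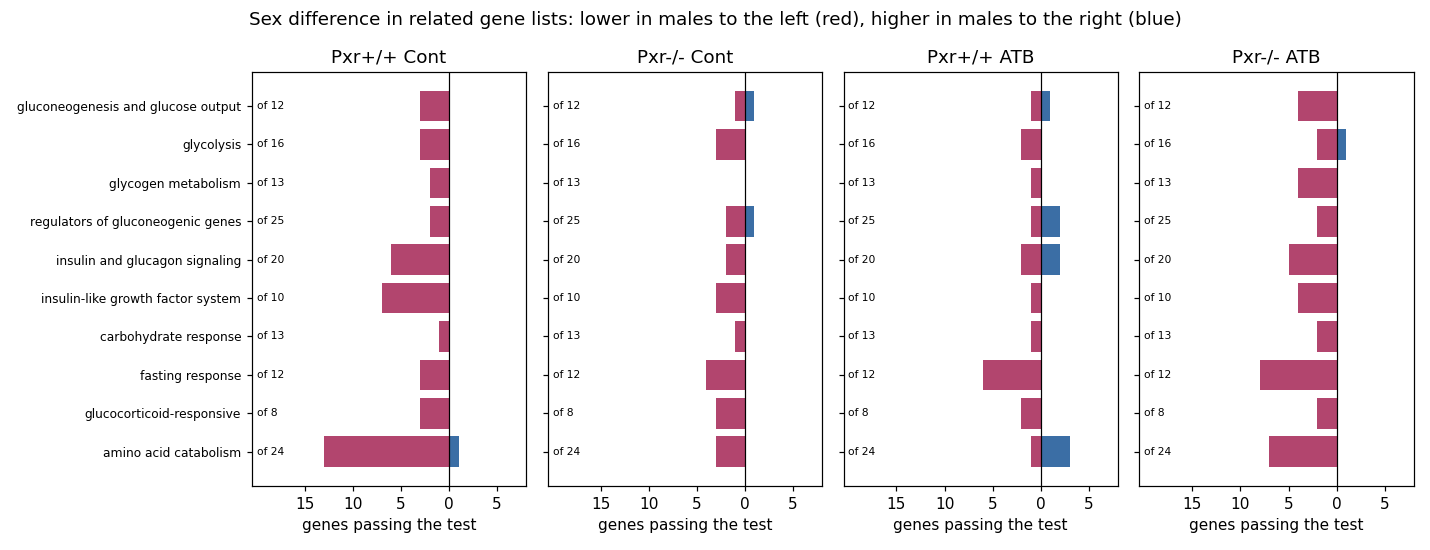
Number of genes that passed the test in 10 gene lists (rows, with the number tested) in the 4 sex comparisons (panels), to the left and red where lower in males, to the right and blue where higher. Most bars point left, with 13 of 24 genes of amino acid catabolism in Pxr+/+ Cont and 8 of 12 of the fasting response in Pxr-/- ATB mice as the longest of their panels.

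The list of gluconeogenesis and glucose output beyond the 9 genes held 12 tested genes, of which 3, 1, 1 and 4 were lower in males in the same order. Slc16a1, the lactate carrier MCT1, was lower in all 4 (-0.64, -0.50, -0.58 and -0.68), and Gpd1, which links glycerol to the path, was higher in males in Pxr-/- Cont (0.42) and Pxr+/+ ATB mice (0.51). Got1, the cytosolic aspartate aminotransferase, was lower in Pxr+/+ Cont (-0.71) and Pxr-/- ATB males (-0.84). Glycogen metabolism gave 2, 0, 1 and 4 of 13 lower, and glycolysis 3, 3, 2 and 2 of 16 lower. Carbohydrate response gave 1, 1, 1 and 2 of 13, with Txnip called in 3 conditions. The share called lower was below that of all genes in all 4 comparisons for carbohydrate response, in all but Pxr-/- ATB mice for gluconeogenesis (25%, 8.33%, 8.33% and 33.3%) and for glycogen metabolism, and in Pxr+/+ Cont and Pxr-/- ATB mice for glycolysis.

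Among genes that act upstream, insulin and glucagon signaling gave 6, 2, 2 and 5 of 20 lower in males, and 2 higher in Pxr+/+ ATB. The shares lower, 30%, 10%, 10% and 25%, were close to those of all genes (29.9%, 13.7%, 9.05% and 23.2%). Akt1, a kinase below Irs2 in insulin signaling, was lower in all 4 conditions (-0.69, -0.50, -0.47 and -0.59), and Socs2, a target and brake of growth hormone signaling, in 3 of them (-2.42, -1.74 and -2.05). Regulators of gluconeogenic genes gave 2, 2, 1 and 2 of 25 lower and 0, 1, 2 and 0 higher, a share lower below that of all genes in all 4 comparisons. Esrrg was lower in Pxr+/+ Cont, Pxr+/+ ATB and Pxr-/- ATB males (-0.68, -1.06 and -0.58), and Nr3c1 in Pxr+/+ Cont and Pxr-/- ATB males (-0.36 and -0.39). Foxo1 was lower in Pxr-/- Cont males alone (-0.73, limma adjusted p = 0.01). Cebpa was higher in Pxr-/- Cont and Pxr+/+ ATB males (0.45 and 0.54). Of the glucocorticoid-responsive list 3, 3, 2 and 2 of 8 were lower, and those were the metallothioneins Mt1 and Mt2 in each condition (-4.47 to -2.08), with Fkbp5 in both Cont groups. These shares, 37.5%, 37.5%, 25% and 25%, compare with 29.9%, 13.7%, 9.05% and 23.2% of all genes. Metallothioneins also answer to metals.

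The insulin-like growth factor system, to which Igfbp1 belongs, held 7, 3, 1 and 4 of 10 other genes lower in males. As shares these were 70%, 30%, 10% and 40%, against 29.9%, 13.7%, 9.05% and 23.2% of all genes. Igfals, the partner that stabilises the factors in blood, was lower in all 4 conditions (-1.17, -0.48, -0.71 and -0.68). Between genotypes this list gave calls in each condition. Igfbp2, another binding protein of the family, was higher in Pxr-/- livers, by 1.15 in Cont males (mean 15, against 13.85 in Pxr+/+, limma adjusted p = 0.000211), 0.81 in Cont females (adjusted p = 0.00862), 0.96 in ATB males (adjusted p = 0.00107) and 0.87 in ATB females (adjusted p = 0.0123). Igfbp1 had negative differences in the same 4 comparisons. Other genotype and antibiotic calls in the lists included Igfals and Bcat2 lower in Pxr-/- Cont females, Sdsl lower in Pxr-/- ATB males and lower with ATB in Pxr-/- females, and Cyp4a14 lower (-2.27) with ATB in Pxr+/+ males.

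Amino acid catabolism, which feeds carbon to the path and to which Tat belongs, gave 13, 3, 1 and 7 of 24 lower in males and 1, 0, 3 and 0 higher. Agxt, the alanine-glyoxylate aminotransferase, was lower in all 4 conditions (-0.68, -0.61, -0.71 and -0.82). Tdo2, the tryptophan dioxygenase, was higher in Pxr+/+ males with Cont (0.47) and with ATB (0.71). The differences of Tat in these 4 comparisons lay between -0.26 and 0.12 and none passed.

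In the order of group means, females came first for 7 of the 9 genes. The 4 female groups were the 4 highest for Pck1, Ppargc1a and Irs2, and the lowest group was Pxr-/- ATB males for G6pc, Fbp1, Ppargc1a, Pklr, Slc2a2 and Igfbp1. Over all genes the median sex difference was also below 0 (-0.20 in Pxr+/+ Cont, -0.13 in Pxr-/- Cont, -0.04 in Pxr+/+ ATB, -0.17 in Pxr-/- ATB). The median of all genes between genotypes in ATB males was -0.13. How many of all genes have such orders was not counted, so these counts are not particular to the set. Steps between neighbours were small, and a neighbouring pair differed by more than the larger of the 2 SDs only for Pck1, between Pxr+/+ ATB and Pxr-/- ATB females (0.33 against 0.21), and for Pklr, between Pxr+/+ ATB females and Pxr-/- ATB males (0.37 against 0.35). From top to bottom the group means spanned 2.16 for Igfbp1, 1.44 for Irs2 and 1.21 for Ppargc1a, and 0.29 for Slc2a2.

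Most of the 9 genes varied widely between mice of the same group. The pooled within-group SD was 0.58 for Igfbp1, 0.54 for Irs2, 0.50 for G6pc, 0.49 for Ppargc1a, 0.42 for Pklr and 0.41 for Pck1. These stood at the 98.8, 98.5, 97.8, 97.5, 96 and 95.5 percentile of the SDs of all genes tested. Tat (0.25, percentile 76.7), Slc2a2 (0.22, percentile 62.3) and Fbp1 (0.18, percentile 37.2) varied less.

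Some of these genes varied together between mice. After group and wash-batch means were taken out, 4 of the 36 pairs of genes had a Pearson r above 0.5 over the 47 mice: Pck1 with Ppargc1a (0.70, Spearman rho 0.70), Irs2 with Igfbp1 (0.69, rho 0.65), G6pc with Irs2 (0.64, rho 0.65) and Pck1 with Tat (0.60, rho 0.62). Leaving out the 2 mice farthest from the median gave 0.68, 0.71, 0.66 and 0.61. The median r of the 36 pairs was 0.06. How many pairs among all genes tested lie above 0.5 was not counted, so the 4 pairs are not shown to be particular to this set. These values are descriptions without a test, and both genes of a pair were read on the same arrays. With the other normalizations and with slide means removed, a choice made after seeing the data, r was 0.70 to 0.73 for Pck1 with Ppargc1a and 0.69 to 0.72 for Irs2 with Igfbp1. Group by group, Irs2 with Igfbp1 gave 0.52 to 0.95 in 7 groups and -0.15 in Pxr-/- Cont males.

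The promoters printed above are those of the genes that held a motif match, and the motifs were searched with the values already seen. The match of motif and correlation among them is therefore shaped by that choice and is no result. Tat, which holds none of the 3 motifs in its 250 bases, varied with Pck1 (0.60) and Ppargc1a (0.48) more than G6pc did with Igfbp1 (0.42). The lowest values were -0.44 for Ppargc1a with Irs2, -0.44 for Pck1 with G6pc, -0.43 for Ppargc1a with G6pc and -0.37 for Pck1 with Irs2, while Igfbp1 gave -0.09 with Ppargc1a and -0.01 with Pck1.

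Pck1 and G6pc, enzymes of the same path, varied in opposite directions in males and not in females, a split looked at after seeing the data. Over 23 males the r was -0.76 and over 24 females 0.41. It was negative in all 4 male groups (-0.81 in Pxr+/+ Cont, -0.81 in Pxr+/+ ATB, -0.96 in Pxr-/- Cont and -0.68 in Pxr-/- ATB) and positive in all 4 female groups (0.46, 0.12, 0.75 and 0.54 in the same order), each over 5 or 6 mice. With slide means removed it was -0.75 in males and 0.24 in females. For G6pc with Tat it was -0.38 in males and 0.56 in females. Whether the r differed between the sexes was not tested. Among Pxr-/- Cont males, the mouse with the lowest Pck1 (15.92) had the highest G6pc (15.43) and the highest Irs2 (12.01), and the mouse with the highest Pck1 (17.25) had the lowest G6pc (14.07) and Irs2 (10.37).

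**Figure D4:**
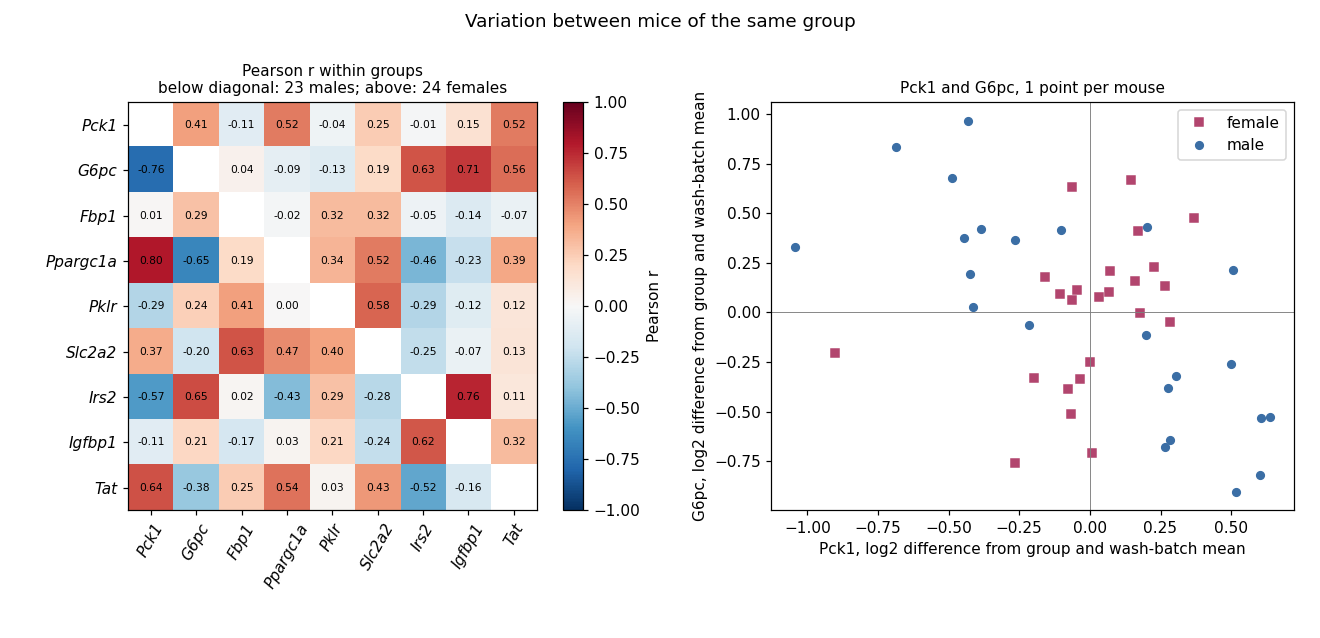
Left, Pearson r between the 9 genes after group and wash-batch means were removed (colour scale from -1 to 1), over 23 males below the diagonal and 24 females above it. Right, Pck1 (horizontal) and G6pc (vertical) as log2 differences from the group and wash-batch mean, 1 point per mouse, where the males (blue) run down from left to right (r = -0.76) and the females (red) do not (r = 0.41).

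Each gene was also set against all genes tested by the same measure, and the 3 most alike were taken. G6pc varied most like Sik1 (r = 0.87), a kinase induced by cAMP, an unnamed transcript of chromosome 11 (0.85) and Slc25a25 (0.84), a mitochondrial carrier. Pklr varied most like Hcn3 (0.96), which lies beside it in the genome, Slc2a4 (0.89) and Fasn (0.85), the fatty acid synthase. Slc2a2 went with Gckr (0.77) and Jade1 (0.77), and Ppargc1a with Rnf169 (0.84), Got1 (0.82) and Mknk2 (0.82). Irs2 went with Pnrc1 (0.75) and Fst (0.75), Tat with Ddit4 (0.72), which glucocorticoids induce, and BC089523 (0.69), and Fbp1 with Ndufc2 (0.80), Commd1 (0.79) and Lrrc40 (0.78). The closest to Pck1 were an unnamed transcript of chromosome 16 (0.93), Tmem239 (0.90) and Zcchc9 (0.90). Igfbp1 had Irs2 itself as its closest gene (0.69), ahead of Gpr161 (0.58) and 3110009F21Rik (0.54).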

How the data were processed

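Expression was measured on 47 Agilent 8-by-60K mouse arrays, 1 liver each. The authors scanned the arrays and deposited intensity values per spot, extracted with Agilent Feature Extraction 10.10.1.1 per the labels, with probe positions on mm9, and a table of processed log2 values of 33383 probes, used as an alternative. From the deposited intensity values, log2 median signals were taken without background subtraction, non-uniform spots (422 values) were left out, and spots of a probe were averaged. A probe was kept if at least 5 arrays of 1 group measured it well above background (32979 probes, 21745 genes). Wash-batch effects were removed (3 batches of 23, 16 and 8 arrays), and arrays normalized by CrossNorm, stacking 1 array of each group in 300 random draws. limma 3.58.1 (R 4.3.3) fitted 8 groups and wash batch to all probes, with Benjamini-Hochberg adjustment over all probes tested. A gene is read from its brightest probe. SEs and intervals (95%) are limma's. The fit was tested on simulated data. Genes named are the 9 members, up to 4 called genes with the largest change per list and comparison, of which a part is printed, the 3 genes most correlated with each member, and Nr1i2, Xist and Ddx3y as label checks. Members and lists were chosen with earlier results of these data known. All 9 genes were matched by symbol in a RefSeq promoter table (GRCm38.p6), which lists Pklr with windows at chr3:89135892-89136141 and chr3:89136373-89136622. Motif counts of the 9 are per gene, any window counting, and the shares of all promoters are per promoter. The number of arrays limits the precision. Some genes of the lists are counted in them but not reported here by name.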

Additional observations from a re-analysis of the deposited data

Results flagged for a closer look

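In 5 of 72 sets of a gene in a group, 1 liver stood far from the others by Dixon's test, which flags about 1 set in 20 by chance. In Pxr+/+ Cont females, Pck1 was 16 in mouse 2 (nearest other liver 16.91), Pklr was 8.56 in mouse 4 (nearest 9.30) and Igfbp1 was 17.3 in mouse 6 (nearest 16.51). G6pc was 14.9 in Pxr+/+ ATB female 3 (nearest 15.41), and Slc2a2 was 10.25 in Pxr-/- Cont female 1 (nearest 10.79). Without the first of these livers, the Pck1 sex difference in Pxr+/+ Cont mice was -0.70 and passed (limma adjusted p = 0.0171). It also passed without male 3 (-0.64, adjusted p = 0.0367) or male 4 (-0.62, adjusted p = 0.0443), which were not flagged for Pck1.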

How the results depend on the processing

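The 10 sex calls became 4 with quantile normalization, 3 with processed signals less the 75th percentile and 4 with normexp and quantile, and ranged from 7 to 11 when 1 liver was left out. Genotype calls rose from 0 to 1 with normexp and quantile and with the authors' processed values (Fbp1 in Cont females, adjusted p = 0.0422 and 0.0364) and with the replicate block (Igfbp1 in ATB males, adjusted p = 0.0465), and ranged from 0 to 2 with 1 liver left out. The mean genotype calls fell from 2 to 1 with quantile normalization, processed signals, and normexp and quantile. Calls in the pathway lists, 145 in all, became 94 with quantile normalization and 93 with normexp and quantile. With 1 liver left out they ranged from 132 to 154, mean sex calls from 4 to 5, mean genotype calls stayed at 2, and ATB calls, mean ATB calls and differences between effects at 0. With quantile normalization 11 of the 108 sex, genotype and ATB differences of the 9 genes changed sign, none of them called and none above 0.17 in size, among them Ppargc1a (-0.17 to 0.07) and Tat (-0.11 to 0.08) between sexes in Pxr+/+ Cont mice. Same-numbered livers of different groups did not deviate together (mean r -0.0317, and 38 of 161 pairs above 0.1), so the numbers do not pair them, and the replicate block changed no other count by over 1.5 times. In Pxr-/- ATB mice the sex calls of Ppargc1a and Irs2 were lost with 3 normalizations. Signal over background did not limit the 9 genes. The causes of these shifts were not tested.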
